A study of Mus musculus with 9 samples.

Results

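The genes described here encode the folding and quality-control machinery of the endoplasmic reticulum (ER), the compartment in which secreted and membrane proteins are made. The list held 34 gene symbols. It comprised 14 chaperones and folding factors, 9 genes of ER-associated degradation, 6 genes of the PERK-ATF4 arm of the unfolded protein response, 3 genes of its IRE1-XBP1 and ATF6 arms, and 2 subunits of the Sec61 translocon. Each gene was represented by the probe set that named it alone in the array annotation, and where there were several, by the one with the highest mean over the 9 arrays. In this way 33 of the 34 genes were measured, of 22180 genes tested in all. The remaining gene, Pdia4, lay only on a probe set shared with another symbol and is named only.

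Liver RNA was profiled on whole-transcript microarrays in C57BL/6 mice that were 5 weeks old at the start (given as C56BL/6J in the strain entry). The regular-diet group (RD) and the high-fat-diet group (HFD) received vehicle, and the third group (GFB) was fed the high-fat diet and received 500 mg/kg of ginseng flower bud extract orally each day over 12 weeks. Each group had 3 arrays, and all livers were taken after an overnight fast. The series title concerns fatty liver, inflammation and insulin resistance, and the comparisons ask how the diet, and the extract given on top of it, related to the liver transcriptome. The labels do not say whether every array came from a mouse of its own, so the spread between arrays, and every p-value built on it, may be technical.

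When unfolded proteins build up in the ER, 3 sensors in its membrane respond. IRE1, encoded by Ern1, splices Xbp1 mRNA, ATF6 is cut and moves to the nucleus, and PERK, encoded by Eif2ak3, slows translation while allowing more ATF4 protein to be made. XBP1 and ATF6 are known to act through ER stress response elements in the promoters of chaperone genes, and ATF4 through a separate element in genes such as Chac1, Trib3 and Ddit3. Hepatocytes secrete large amounts of protein, and this response has been studied widely in fatty liver. Xbp1 splicing, cleavage of ATF6 and translation of ATF4 are not visible in total mRNA levels, which are what the array measured.

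The promoter sequences are shown because the chaperone, degradation and PERK-ATF4 genes differ in these elements. RefSeq promoter windows of the mouse assembly GRCm38.p6, which cover 250 bases before to 50 bases after each gene start, were found for 29 of the 34 genes. Hyou1, Manf, Derl1, Atf6 and Sec61a1 had none. The ER stress response element (ERSE) was searched as CCAAT, then 9 bases of any kind, then CCACG, on both strands and with no mismatch. It was found in 9 of the 29 genes (31.0%), against 39 of all 32851 promoter windows (0.119%). By role it stood in 7 of 12 chaperones and folding factors, 2 of 8 degradation genes and 0 of 6 genes of the PERK-ATF4 arm. It contains CCAAT and CCACG, which alone were found in 37.4% and 32.8% of all windows and each in 79.3% of the listed genes. These shares differ in unit. A listed gene counted if any of its windows matched, while the 32851 windows belonged to 27025 genes, the listed ones included. Each match is printed 5′ to 3′ on the gene's own strand with the element in capitals and 12 flanking bases on either side. A match that begins with CGTGG is the element on the opposite strand.
Hspa5, chr2:34772013-34772055, + strand: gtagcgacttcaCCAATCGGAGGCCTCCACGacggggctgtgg
Hsp90b1, chr10:86705626-86705668, - strand: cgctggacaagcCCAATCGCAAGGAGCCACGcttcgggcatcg
Hsp90b1, chr10:86705521-86705563, - strand: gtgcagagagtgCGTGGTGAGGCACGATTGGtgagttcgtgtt
Calr, chr8:84847063-84847105, - strand: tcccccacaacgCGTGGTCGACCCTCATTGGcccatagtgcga
Canx, chr11:50325788-50325830, - strand: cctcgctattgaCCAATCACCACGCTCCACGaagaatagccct
Pdia6, chr12:17266479-17266521, + strand: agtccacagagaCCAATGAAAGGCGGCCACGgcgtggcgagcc
Dnajc3, chr14:118937815-118937857, + strand: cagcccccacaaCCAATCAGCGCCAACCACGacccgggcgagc
Creld2, chr15:88819508-88819550, + strand: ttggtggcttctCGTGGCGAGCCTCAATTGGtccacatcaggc
Syvn1, chr19:6046520-6046562, + strand: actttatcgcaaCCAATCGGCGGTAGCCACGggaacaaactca
Derl3, chr10:75893230-75893272, + strand: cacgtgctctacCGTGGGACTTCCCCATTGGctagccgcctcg

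The Hspa5 promoter is shown whole up to the gene start, with the single exact match in capitals, as the best-known target of the element. Further CCAAT boxes are visible upstream in lower case.
Hspa5, chr2:34771840-34772089, + strand: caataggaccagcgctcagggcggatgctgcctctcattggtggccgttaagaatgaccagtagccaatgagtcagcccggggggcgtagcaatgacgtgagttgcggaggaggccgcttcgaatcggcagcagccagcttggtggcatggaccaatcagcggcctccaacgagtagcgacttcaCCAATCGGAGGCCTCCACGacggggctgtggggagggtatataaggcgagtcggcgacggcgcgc

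A second form, ERSE-II, searched as ATTGG, then 1 base of any kind, then CCACG, was found in 2 of the 29 genes, Herpud1 and, after the gene start, Dnajb11, and in 0.0365% of all windows. The element TGACGTGG, known as the unfolded protein response element, was found in 0 of the 29 and in 0.676% of all windows. The ATF4 element, searched as TGATGNAAN, was found in Chac1, Trib3 and Herpud1 and in 3.95% of all windows. The matches before the gene start are printed for Herpud1, which holds both kinds, and for Chac1. The ATF4 elements read on the opposite strand.
Herpud1 ERSE-II, chr8:94386365-94386399, + strand: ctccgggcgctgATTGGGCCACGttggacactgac
Herpud1 ATF4 element, chr8:94386304-94386336, + strand: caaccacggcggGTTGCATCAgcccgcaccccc
Chac1 ATF4 element, chr2:119351036-119351068, + strand: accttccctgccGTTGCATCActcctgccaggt
A match is a description of letters in this window. It does not show binding, and the absence of a match says nothing of a factor acting elsewhere.

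The arrays were alike in overall brightness, with probe set medians from 4.34 to 4.38 on the log2 scale, and no 2 arrays were identical. All 8 hepatocyte markers lay above the median of gene means, 4.74, in at least 1 array, and albumin (Alb) had means of 13.52 (RD), 13.53 (HFD) and 13.55 (GFB). The summed linear signal of the 8 was 42693 to 45013 in RD, 40212 to 42242 in HFD, wholly under RD, and 42688 to 43380 in GFB. Of them 5 were higher and 3 lower in HFD than in RD. Cps1, the first enzyme of the urea cycle, fell in HFD against RD (-0.66, limma, adjusted p = 0.0224) and in both high-fat groups against RD (-0.49, limma, adjusted p = 0.0358). The call in HFD was lost without RD replicate 2, RD replicate 3 or any HFD array (highest adjusted p = 0.0851), and the call for both groups held only without RD replicate 1 (highest adjusted p = 0.123). Calls over all genes also fell when any array but RD replicate 1 was left out. They went from 297 to between 58 and 203 in HFD, and from 372 to between 63 and 243 for both groups. Tat, a tyrosine-degrading enzyme, was -0.47 in HFD against RD and did not pass the test. Secretory cells of other kinds also express this machinery strongly. Of their markers, 4 of 7 for plasma cells and 3 of 5 for pancreatic acinar cells lay under 4.74 in all 9 arrays. The summed linear signal of the plasma cell markers was 279 to 305 in RD, 240 to 249 in HFD and 227 to 263 in GFB, lower in both high-fat groups, and Sdc1 fell in HFD against RD (-0.50, adjusted p = 0.0468). The Sdc1 call was lost in 8 of 9 fits that left out an array (highest adjusted p = 0.155). Sdc1 was the brightest of these markers, and 5 of the 7 were higher in HFD than in RD, with a median log2 difference of 0.070, so the sum and the list's median differ in sign. The acinar sum was 98.5 to 106 in RD, 96.0 to 109 in HFD and 107 to 119 in GFB. The summed signal of 8 stellate cell and fibroblast markers overlapped between groups, at 1430 to 1790 in RD, 1471 to 1495 in HFD and 1423 to 1633 in GFB. Of these, 6 were higher and 2 lower in HFD than in RD. Their log2 differences ran from -0.38 to 1.14, with a median of 0.18. Col3a1 (1.14, limma, adjusted p = 0.0115) and Col1a1 (0.85, adjusted p = 0.0152) rose in HFD against RD, while Col1a1 read 5.62 to 5.75 in GFB, under its 5.79 to 5.93 in RD. The Col1a1 call was lost without RD replicate 2 or 3 or HFD replicate 2 or 3 (highest adjusted p = 0.0686), and the Col3a1 call without RD replicate 2 (adjusted p = 0.0538). The sum of 6 sinusoidal endothelium markers was 1322 to 1491 in RD, 1069 to 1286 in HFD, wholly under RD, and 1319 to 1601 in GFB. Of these, 4 were lower and 2 higher in HFD than in RD, and Kdr was -0.47 (limma, adjusted p = 0.0744). The log2 differences of the 6 ran from -0.47 to 0.52, with a median of -0.21, so the markers did not fall as 1. The part of these cells in the differences that follow was not tested. In whole liver, a smaller number of cells of a type and less RNA per cell cannot be told apart.

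Across the 33 genes, most were higher on the high-fat diet, with or without extract, than on the regular diet, but few passed the test across all genes. A gene was called at an adjusted p under 0.05 (limma, Benjamini-Hochberg over all 22180 genes). In HFD against RD 30 of 33 were higher, beside 50.1% of all genes, and 0 were called, where 1.34% of all genes were called. In that comparison 16 of 33 had an unadjusted p under 0.05, all higher, beside 6.89% of all genes higher and 6.39% lower at that level. In GFB against RD, which uses the same RD arrays, 27 were higher, beside 50.3% of all genes, and 0 were called, beside 0.442%. In it 17 had an unadjusted p under 0.05, all higher, beside 5.79% of all genes higher and 6.26% lower. Setting the mean of both high-fat groups against RD, 29 were higher, beside 50.6% of all genes, and 2 were called, Canx and Sec61a1, both higher, beside 1.68% of all genes called and 0.933% called higher. At an unadjusted p under 0.05 there were 19, all higher, beside 6.88% of all genes higher and 7.29% lower. At a looser adjusted p under 0.10 there were 4 in HFD against RD, beside 2.75% of all genes, 0 in GFB against RD, beside 0.974%, and 6 in both groups against RD, beside 3.43%. The moderated F test over the 3 groups called 0 of 33, beside 0.78% of all genes.

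The order of single arrays gave the same picture without a model. All 3 HFD arrays lay above all 3 RD arrays for 16 of the 33 genes, beside 7.93% of all genes, and below them for 0, beside 7.86%. All 3 GFB arrays lay above the RD arrays for 14, beside 7% of all genes, and below for 0, beside 7.62%. All 6 arrays of both high-fat groups lay above the RD arrays for 11, beside 3.8%, and below for 0, beside 4.11%. Those 11 genes were Hsp90b1, Canx, Pdia3, Pdia6, Creld2, Manf, Sel1l, Syvn1, Edem1, Atf6 and Sec61a1. The median log2 difference over the 33 was 0.35 in HFD against RD, 0.27 in GFB against RD and -0.016 in GFB against HFD, beside -0.0015 to 0.00086 over all genes tested. These 3 comparisons share arrays in pairs, so they are not separate evidence. The heat map of single arrays shows the blocks of high chaperone values in both high-fat groups and the near-neutral PERK-ATF4 rows.

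**Figure D1:**
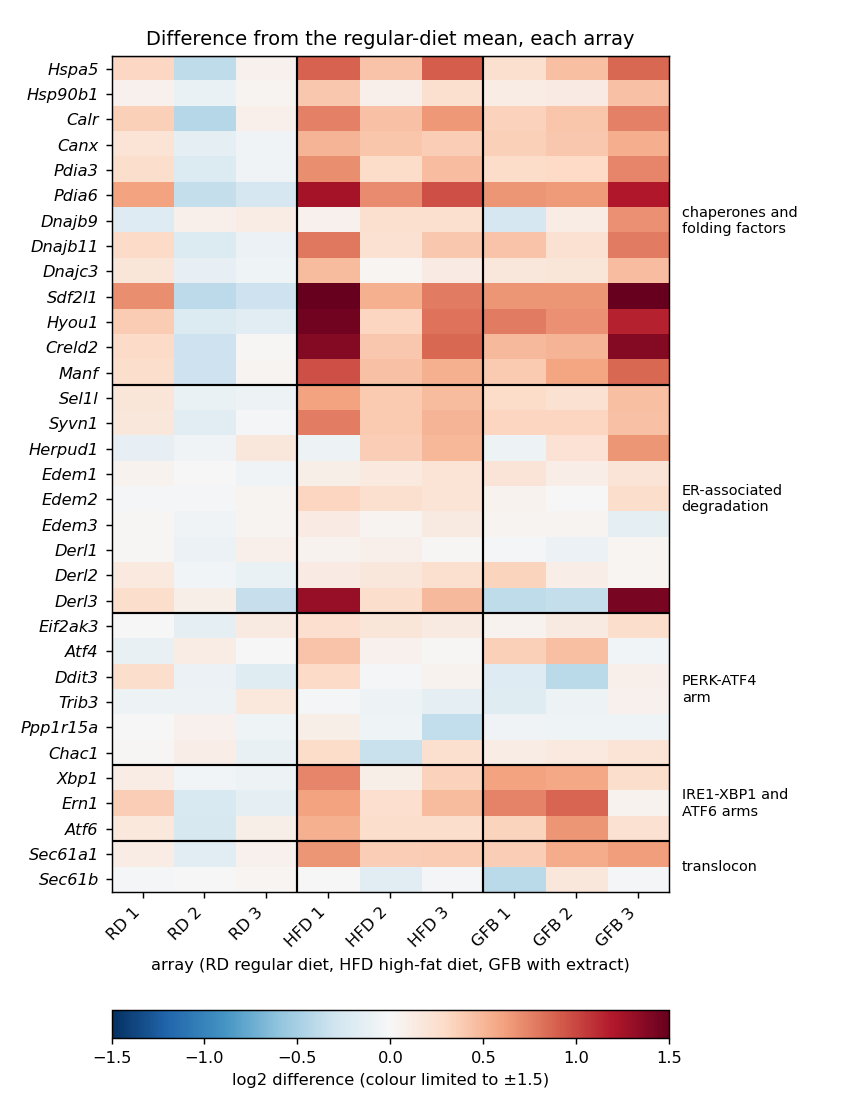
Each cell gives a gene's log2 value in 1 array minus its mean over the 3 regular-diet arrays (RD), for 33 genes grouped by role, with colour limited to ±1.5. Chaperones are mostly red in the HFD and GFB arrays, most of all in HFD replicate 1 and GFB replicate 3, where Sdf2l1 lies 1.73 and 1.89 above its RD mean, while the 6 PERK-ATF4 rows stay pale.

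The chaperones and folding factors showed the widest differences. All 13 measured genes were higher in HFD than in RD, with a median log2 difference of 0.62 and a range of 0.18 (Dnajb9) to 1.02 (Sdf2l1), where 1 log2 unit is a 2-fold difference. All 13 were also higher in GFB than in RD, with a median of 0.51, although Dnajb9 turned to -0.067 without GFB replicate 3. For 8 of them the HFD arrays lay wholly above the RD arrays, beside 7.93% of all genes, and for 7 the GFB arrays did, beside 7%.

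Canx encodes calnexin, the membrane lectin that holds newly made glycoproteins while they fold. Its log2 values were 10.46, 10.12 and 10.20 in RD, 10.77, 10.68 and 10.63 in HFD, and 10.62, 10.67 and 10.80 in GFB. All 6 high-fat arrays lay above all RD arrays, and the HFD and GFB arrays overlapped. Canx rose by 0.43 ± 0.087 (SE), a 1.35-fold difference, in both high-fat groups against RD (limma, adjusted p = 0.0448). Against RD alone the differences were 0.43 in HFD (adjusted p = 0.0805) and 0.44 in GFB (adjusted p = 0.125), neither of which passed. The call for both groups depended on single arrays: it held without RD replicate 1 (adjusted p = 0.0161) and was lost when any 1 of the other 8 arrays was left out (adjusted p = 0.0808 to 0.174). It was also lost after a second quantile normalization (adjusted p = 0.0774). Over all genes, the 372 calls for both groups rose to 553 without RD replicate 1. They fell to between 63 and 243 without any other array, and were 414 after the second normalization.

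Calreticulin, encoded by Calr, is the soluble partner of calnexin in the ER lumen. Its values were 10.99, 10.21 and 10.71 in RD, 11.40, 11.08 and 11.29 in HFD, and 10.98, 11.05 and 11.39 in GFB. The HFD arrays all lay above RD, and GFB replicate 1 lay within the RD range. The difference was 0.62 ± 0.19 (SE) in HFD against RD (limma, adjusted p = 0.181) and 0.51 in GFB against RD (adjusted p = 0.328). Pdia3, the disulfide isomerase that works with both lectins, was 0.48 higher in HFD and 0.44 higher in GFB than in RD.

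Pdia6 encodes another disulfide isomerase of the lumen. Its values were 9.20, 8.24 and 8.34 in RD, 9.84, 9.31 and 9.56 in HFD, and 9.25, 9.23 and 9.79 in GFB. RD replicate 1 stood well above the other RD arrays and just under the lowest high-fat array, and no group overlapped RD. The difference was 0.97 ± 0.26 (SE) in HFD against RD, 1.97-fold (adjusted p = 0.127), and 0.90 ± 0.23 in both groups against RD (adjusted p = 0.0910). Without RD replicate 1 the value for both groups was 1.21 and passed (limma, adjusted p = 0.0165).

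Hspa5 encodes BiP, the main HSP70 chaperone of the ER, which also binds the 3 sensors. Its values were 8.17, 7.49 and 7.93 in RD, 8.74, 8.29 and 8.77 in HFD, and 8.10, 8.31 and 8.73 in GFB. The HFD arrays lay above all RD arrays, and GFB replicate 1 lay just under RD replicate 1. The difference was 0.74 ± 0.22 (SE) in HFD against RD, 1.67-fold, with a 95% interval of 0.25 to 1.22, and did not pass over all genes (limma, adjusted p = 0.156). It was 0.52 in GFB against RD (adjusted p = 0.382) and 0.63 in both groups (adjusted p = 0.154).

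The cofactors of BiP varied in size of difference. Hyou1, the nucleotide exchange factor of BiP, was 0.86 higher in HFD and 0.87 in GFB than in RD, with adjusted p of 0.190 and 0.242. Sdf2l1, which joins the co-chaperone Dnajb11 in a complex, differed most, by 1.02 and 1.07. Its values were 6.43, 5.35 and 5.43 in RD, 6.27 to 7.47 in HFD and 6.40, 6.40 and 7.62 in GFB, so that RD replicate 1 overlapped both groups and the SE was 0.43. Dnajb11 was 0.48 higher in each group, and Dnajc3, a further J-domain co-chaperone, 0.21 and 0.27. Dnajb9, a J-domain protein known as a repressor of IRE1, had the smallest differences, 0.18 and 0.19.

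Manf and Creld2 encode small ER proteins that are induced and partly secreted under ER stress. Manf values were 5.20, 4.63 and 4.98 in RD, 5.90, 5.38 and 5.47 in HFD, and 5.33, 5.52 and 5.80 in GFB. No high-fat array of Manf overlapped RD, and the difference in both groups against RD was 0.63 ± 0.16 (SE; limma, adjusted p = 0.0984). Creld2 was 0.88 higher in HFD and 0.79 in GFB, with all arrays of each above RD, and adjusted p of 0.225 and 0.325. Hsp90b1, which encodes GRP94, the HSP90 chaperone of the ER, was 0.24 and 0.23 higher.

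Genes of ER-associated degradation, which draws misfolded proteins out of the ER for the proteasome, had smaller differences. All 9 were higher in HFD than in RD, with a median log2 difference of 0.26 and a range of 0.049 (Derl1) to 0.69 (Derl3). The HFD arrays lay wholly above RD for 5 of the 9, beside 7.93% of all genes. Derl3 was counted among the 5 although its HFD replicate 2 and RD replicate 1 both rounded to 4.82 (limma, unadjusted p = 0.171). In GFB against RD 7 of 9 were higher and the median was 0.16. The HFD median depended on single arrays, and without HFD replicate 3 it was 0.15.

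Syvn1 and Sel1l encode the E3 ubiquitin ligase HRD1 and its membrane partner, and they came closest to the threshold in HFD against RD. Sel1l values were 8.45, 8.17 and 8.19 in RD, 8.88, 8.66 and 8.74 in HFD, and 8.55, 8.51 and 8.72 in GFB. Syvn1 values were 6.98, 6.65 and 6.79 in RD, 7.58, 7.20 and 7.32 in HFD, and 7.13, 7.13 and 7.25 in GFB. For both genes all 6 high-fat arrays lay above RD, while the HFD and GFB arrays overlapped. Sel1l was 0.49 ± 0.10 (SE) higher in HFD than in RD (limma, adjusted p = 0.0576) and Syvn1 0.56 ± 0.12 (adjusted p = 0.0550). Both missed the threshold in the fit of all genes and passed it with a variance trend and robust moderation (adjusted p = 0.0375 and 0.0370) and without RD replicate 1 (0.0273 and 0.0367). In GFB against RD they were 0.32 and 0.36 higher (adjusted p = 0.258 and 0.250).

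The EDEM proteins mark misfolded glycoproteins for removal. Edem2 values were 7.08, 7.07 and 7.14 in RD, 7.42, 7.33 and 7.31 in HFD, and 7.14, 7.09 and 7.36 in GFB. The HFD arrays were all above RD, and GFB replicate 2 lay within the RD range, with GFB replicate 1 just above it. The difference was 0.26 ± 0.084 (SE) in HFD against RD (limma, adjusted p = 0.213) and 0.10 in GFB against RD. Edem1 was 0.15 and 0.16 higher, with all arrays above RD in each case, and Edem3 was 0.10 in HFD and -0.019 in GFB.

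Herpud1, a scaffold of the HRD1 complex, was 0.26 and 0.27 higher, with overlapping arrays. The Derlins are thought to form part of the exit channel, and Derl1 and Derl2 were within 0.18 of RD in both groups. Derl3 varied most of all 33 genes within a group. Its values were 4.82, 4.64 and 4.21 in RD, 5.86, 4.82 and 5.04 in HFD, and 4.18, 4.20 and 5.98 in GFB. GFB replicate 3 stood far above the other GFB arrays, and without it the difference from RD was -0.37 in place of 0.23. Of the 9 arrays, 4 lay under 4.74, the median of gene means, which is no detection limit. Derl2 and Edem1 each had a second, dimmer probe set, and its HFD-minus-RD difference had the same sign (0.054 and 0.10).

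The sensors and the factor XBP1 were higher in both high-fat groups without passing the test. Xbp1 encodes the transcription factor made after IRE1 splices its mRNA, and its values were 9.20, 9.05 and 9.01 in RD, 9.82, 9.18 and 9.44 in HFD, and 9.70, 9.67 and 9.35 in GFB. All GFB arrays lay above RD, and HFD replicate 2 lay within the RD range. The difference was 0.39 ± 0.16 (SE) in HFD (limma, adjusted p = 0.325) and 0.48 in GFB (adjusted p = 0.266).

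Ern1, which encodes IRE1, read 7.60, 7.0 and 7.08 in RD, 7.83, 7.48 and 7.70 in HFD, and 7.97, 8.10 and 7.28 in GFB. RD replicate 1 overlapped both high-fat groups, and the differences from RD were 0.44 in HFD and 0.56 in GFB (limma, adjusted p = 0.447 and 0.365). Atf6 read 8.25, 7.84 and 8.17 in RD, 8.62, 8.35 and 8.35 in HFD, and 8.42, 8.75 and 8.32 in GFB. All 6 high-fat arrays of Atf6 lay above RD, by 0.35 ± 0.15 (SE) in HFD and 0.41 in GFB, with adjusted p of 0.334 and 0.302.

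The PERK-ATF4 arm differed little between the groups. Of its 6 genes, 4 were higher in HFD than in RD and 3 in GFB than in RD, and the median log2 differences were 0.083 and 0.043. The arrays lay wholly above RD for 1 of the 6 in HFD (Eif2ak3) and 1 in GFB (Chac1), by small margins, beside 7.93% and 7% of all genes. None had an unadjusted p under 0.05 in any of the 4 comparisons. In HFD against RD the 95% intervals ran from -0.36 at the lowest bound (Ppp1r15a) to 0.51 at the highest (Atf4). A difference as large as that of Syvn1, 0.56, lay above all 6 intervals. Those of Canx, 0.43, and Sec61a1, 0.47, lay within the interval of Atf4, and that of Canx also within the interval of Ddit3. The chaperone median of 0.62 also lay above all 6 intervals. The upper bounds of Trib3 (0.12) and Ppp1r15a (0.13) lay under the degradation median of 0.26 too. The intervals thus leave room for some of the smaller differences seen in other roles, and for some of these genes only. The median of the PERK-ATF4 arm turned to -0.015 without HFD replicate 1 and was 0.18 without HFD replicate 2.

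Eif2ak3, which encodes PERK, read 5.59, 5.44 and 5.71 in RD, 5.83, 5.76 and 5.71 in HFD, and 5.63, 5.71 and 5.84 in GFB. RD replicate 3, HFD replicate 3 and GFB replicate 2 all rounded to 5.71, with the HFD arrays narrowly above RD and the GFB arrays overlapping it. The difference was 0.19 ± 0.090 (SE) in HFD against RD (limma, adjusted p = 0.410). Atf4, the transcription factor of the arm, read 6.95, 7.18 and 7.06 in RD, 7.50, 7.13 and 7.08 in HFD, and 7.42, 7.52 and 7.03 in GFB. Of these, 1 HFD array and 2 GFB arrays were above RD and the others within its range, with differences of 0.17 and 0.26 (adjusted p = 0.689 and 0.551).

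Ddit3 encodes CHOP, a factor linked to cell death under lasting stress. It read 6.02, 5.68 and 5.59 in RD, 6.05, 5.75 and 5.82 in HFD, and 5.57, 5.36 and 5.84 in GFB. All groups overlapped, and the differences from RD were 0.11 ± 0.15 (SE) in HFD and -0.18 in GFB (limma, adjusted p = 0.820 and 0.706). Chac1, a glutathione-degrading enzyme and ATF4 target, read 5.08, 5.17 and 4.96 in RD, 5.34, 4.73 and 5.31 in HFD, and 5.19, 5.22 and 5.28 in GFB. HFD replicate 2 was the lowest of the 9 Chac1 arrays, the GFB arrays lay narrowly above RD, and the difference was 0.056 ± 0.15 in HFD and 0.16 in GFB. Trib3, a pseudokinase, and Ppp1r15a, which encodes GADD34 and reverses the block of translation, were -0.082 and -0.12 in HFD against RD. Chac1, Trib3 and Ppp1r15a all had means between 5.07 and 5.29 in every group, near the median of gene means.

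The translocon subunits differed. Sec61a1 encodes the channel through which new proteins enter the ER, and its values were 8.92, 8.64 and 8.88 in RD, 9.47, 9.18 and 9.20 in HFD, and 9.18, 9.36 and 9.44 in GFB. All 6 high-fat arrays lay above RD. Sec61a1 rose by 0.50 ± 0.10 (SE), 1.41-fold, in both high-fat groups against RD (limma, adjusted p = 0.0443), and was 0.47 higher in HFD (adjusted p = 0.0905) and 0.52 in GFB (adjusted p = 0.113). The call held without RD replicate 1 (adjusted p = 0.0499), was lost when any 1 of the other 8 arrays was left out (adjusted p = 0.0632 to 0.172) and was lost after a second quantile normalization (adjusted p = 0.0588). As for Canx, calls over all genes rose without RD replicate 1 and fell without any other array.

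Sec61b, the small tail-anchored subunit, read 4.21, 4.24 and 4.26 in RD, 4.25, 4.08 and 4.21 in HFD, and 3.83, 4.41 and 4.21 in GFB. All 9 arrays lay under 4.74, and the groups overlapped. Its 2 probe sets disagreed in sign for HFD minus RD (-0.058 and 0.10), so this gene carries no direction. The plot of 12 genes by array shows these values for 4 roles together with the chosen PERK-ATF4 genes.

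**Figure D2:**
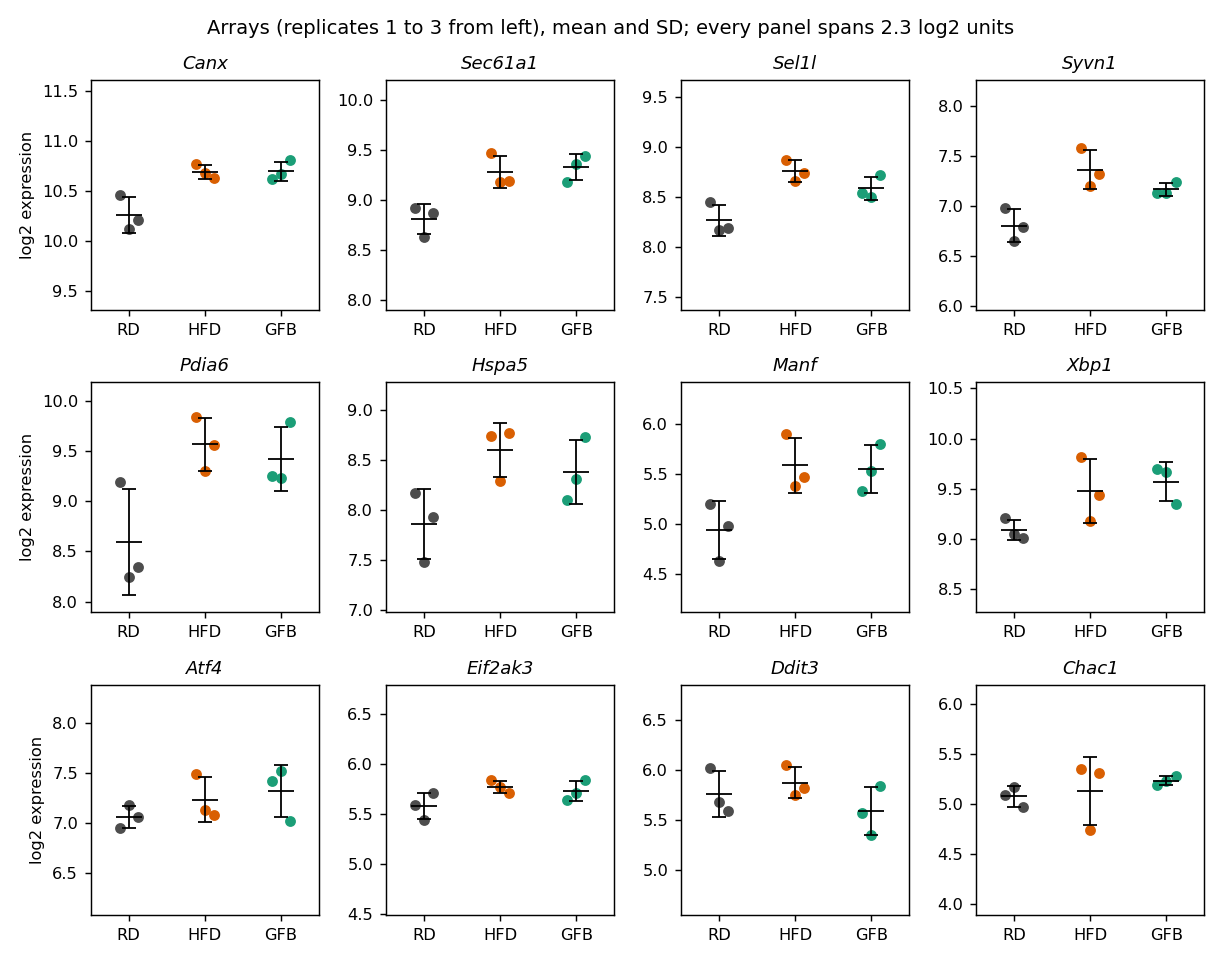
Log2 expression of 12 genes in each of the 9 arrays, with group mean (bar) and SD (whiskers), replicates 1 to 3 from left within each group and the same span in every panel. For Canx, Sec61a1, Sel1l, Syvn1, Pdia6 and Manf all HFD and GFB points lie above all RD points, while the Atf4 and Ddit3 points overlap between all groups, and those of Eif2ak3 (HFD) and Chac1 (GFB) lie barely above RD.

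The extract comparison, GFB against HFD, gave no call among these genes. In it 15 of 33 were higher and 18 lower, beside 49.4% of all genes higher, and 0 were called (limma), beside 0.00451% of all genes. At an adjusted p under 0.10 there were 0, beside 0.018%, and 0 had an unadjusted p under 0.05, beside 2.58% of all genes higher and 3.4% lower. For 0 of 33 did the GFB arrays lie wholly above the HFD arrays, beside 4.42% of all genes, and for 0 wholly below, beside 5.27%. No alternative setting called any of the 33, beside 0 to 4 of all genes tested. The median log2 difference was -0.016 for the chaperones, with 5 of 13 higher, 0.036 for the PERK-ATF4 arm, with 4 of 6 higher, and 0.092 for Xbp1, Ern1 and Atf6, all 3 higher. The degradation genes had a median of -0.12, with 7 of 9 lower.

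The smallest unadjusted p-values in GFB against HFD belonged to Ddit3 and to 3 degradation genes. Ddit3 was -0.28 ± 0.15 (SE; unadjusted p = 0.0919), Edem2 -0.16 ± 0.084 (unadjusted p = 0.0970), Syvn1 -0.20 ± 0.12 and Sel1l -0.17 ± 0.10, each with an adjusted p of 0.852 to 0.863 (limma). Their arrays overlapped between the groups. The intervals leave room in both directions: the 95% interval was -0.70 to 0.26 for Hspa5, -0.22 to 0.23 for Canx, -0.46 to 0.064 for Syvn1 and -0.21 to 0.30 for Sec61a1. A p that misses the threshold does not show that the extract left these genes as they were. The plot of differences with their SE shows the 3 comparisons side by side.

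**Figure D3:**
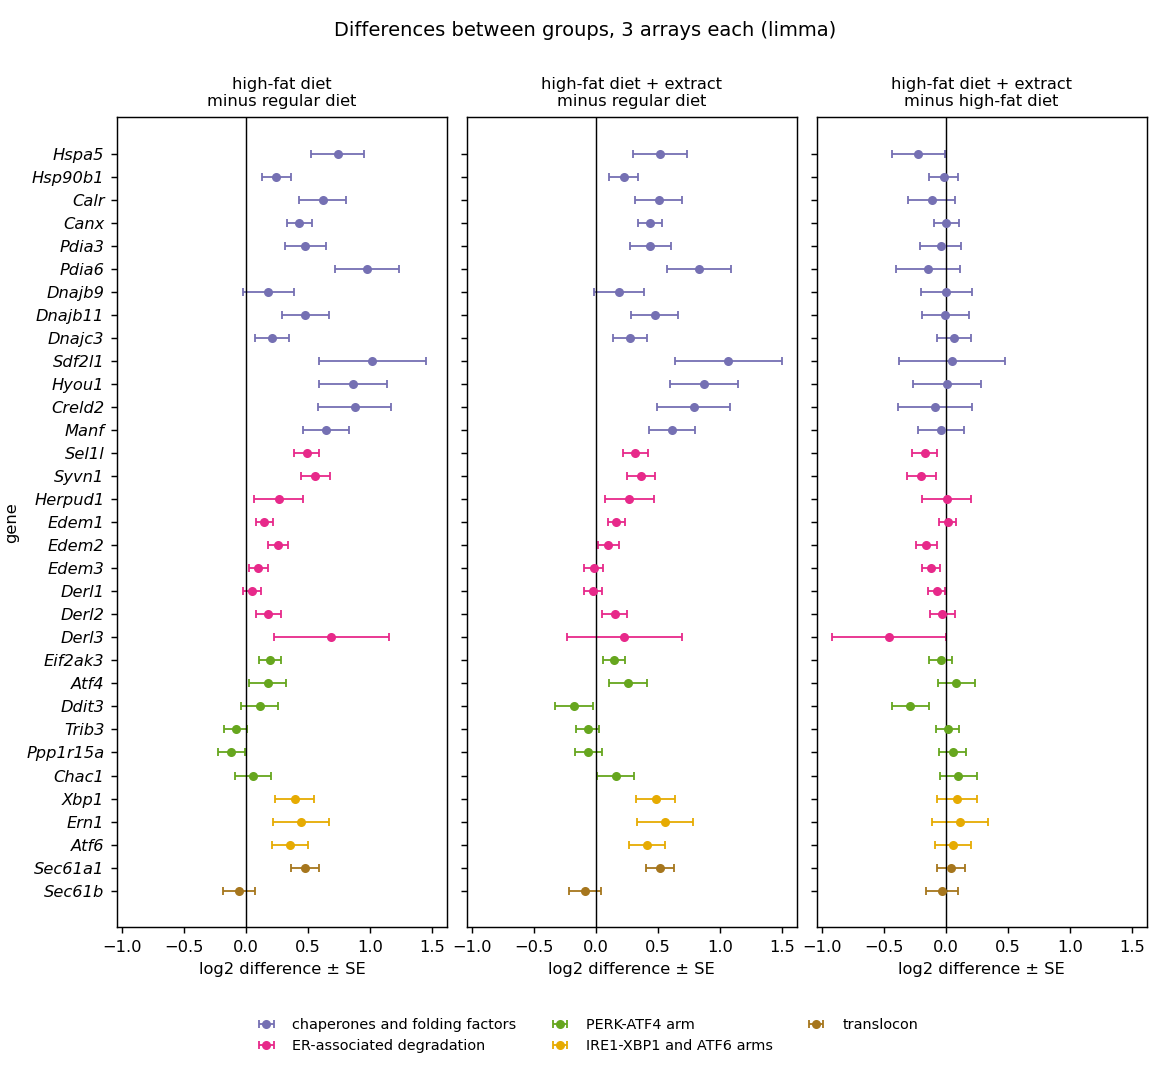
Log2 difference ± SE (limma, 3 arrays a group) for 33 genes coloured by role, in HFD minus RD, GFB minus RD and GFB minus HFD. Chaperones lie to the right of 0 in the first and second panels (medians 0.62 and 0.51) and around 0 in the last (-0.016), while the PERK-ATF4 genes lie near 0 in all 3.

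Within each group the chaperones were high or low together in the same arrays. RD replicate 1 was the highest RD array for 12 of the 13 chaperones, beside 39.4% of all genes. HFD replicate 1 was the highest HFD array for 11 of 13, beside 37.5%, and GFB replicate 3 the highest GFB array for 13 of 13, beside 30.7%. Measured from the RD mean, the median chaperone stood at 0.29, -0.21 and -0.053 in the RD arrays, 0.79, 0.40 and 0.53 in the HFD arrays, and 0.36, 0.42 and 0.78 in the GFB arrays. The highest RD array thus lay below the lowest high-fat array by less than the spread inside any group. The PERK-ATF4 genes shared the HFD order, with HFD replicate 1 highest for 6 of 6, while Xbp1, Ern1 and Atf6 were lowest of the GFB arrays in GFB replicate 3, where the chaperones were highest.

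The elements in the promoters ran in part alongside the differences. The 9 genes with an ERSE were all higher in HFD than in RD, with a median log2 difference of 0.62 and a range of 0.21 to 0.97. Of the 19 measured genes with a promoter sequence and no ERSE, 16 were higher, with a median of 0.18. Their range was -0.12 to 1.02, and the highest, Sdf2l1, had the largest difference of all 33 genes. Among all other genes in the genome with the same element, 20 were measured and 10 of them were higher, with a median of -0.0087. Outside the list, genes with the element were thus split evenly. Within it 7 of the 9 genes with the element were chaperones, so the medians of 0.62 and 0.18 mix element and role. Among measured chaperones with a promoter sequence, those with the element ran from 0.21 (Dnajc3) to 0.97 (Pdia6) in HFD against RD. Those without it read 0.18 (Dnajb9), 0.48 (Pdia3), 0.48 (Dnajb11) and 1.02 (Sdf2l1), so the ranges overlapped. The part of the element in these differences was not tested.

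Other genes of the same pathways, from lists wider than the 34, had list medians closer to 0 in HFD against RD, although single genes lay further out. Of 24 further ER folding enzymes and chaperones, 15 were higher in HFD than in RD, with a median log2 difference of 0.089, and 0 were called (limma), beside 1.34% of all genes. At an unadjusted p under 0.05 there were 4, 3 higher and 1 lower, beside 6.89% of all genes higher and 6.39% lower. Uggt1, the glucosyltransferase that returns misfolded glycoproteins to calnexin, was 0.33 higher in both high-fat groups (adjusted p = 0.0975), and Mogs, the glucosidase that starts glycan trimming, was -0.37 in HFD against RD (adjusted p = 0.0916). Ppib, a proline isomerase, was 0.52 higher in GFB than in RD (adjusted p = 0.192). Of 20 further degradation genes 7 were higher, with a median of -0.0096 and 0 called. At an unadjusted p under 0.05 there were 2, all lower, beside the same 6.39% of all genes. Of 21 genes of protein translocation and signal peptide cleavage 12 were higher, with a median of 0.046 and 0 called. At an unadjusted p under 0.05 there were 4, all higher, beside the same 6.89% of all genes.

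Of 23 further ATF4 targets 14 were higher in HFD than in RD, with a median of 0.034, 1 rose and 1 fell, beside 1.34% of all genes called. Their log2 differences ran from -1.33 to 0.36 in HFD against RD and from -1.03 to 0.40 in GFB against RD. Shmt2, a mitochondrial enzyme of serine and glycine metabolism, rose by 0.36 ± 0.068 (SE; limma, adjusted p = 0.0399). Its values were 9.54, 9.65 and 9.51 in RD, 9.90, 9.97 and 9.92 in HFD, and 9.93, 10.02 and 9.95 in GFB, with no overlap with RD. The call in HFD against RD was lost when any 1 array was left out (adjusted p = 0.0627 to 0.130), as was that in GFB against RD (0.40, adjusted p = 0.0484, and 0.0617 to 0.177 without an array). Over all genes, calls in HFD against RD rose from 297 to 452 without RD replicate 1. They fell to between 58 and 203 without any other array. Cth, which makes cysteine from cystathionine, fell by 1.33 ± 0.18 (adjusted p = 0.0132). Its values were 11.29, 11.84 and 11.96 in RD, 10.22, 10.43 and 10.47 in HFD, and 11.01, 10.61 and 10.85 in GFB. All Cth arrays of both high-fat groups lay under RD, and the call was lost without RD replicate 2 or HFD replicate 3 (highest adjusted p = 0.0572). In both high-fat groups against RD the values were 0.38 for Shmt2 (adjusted p = 0.0181) and -1.10 for Cth (adjusted p = 0.0126), and either call was lost without RD replicate 2 or 3 (highest adjusted p = 0.0741 and 0.0676).

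Of 17 further sensors and regulators 10 were higher in HFD than in RD, with a median of 0.035. Their log2 differences ran from -0.40 to 0.48. At an unadjusted p under 0.05 (limma) 3 were higher and 2 lower, beside 6.89% and 6.39% of all genes. The 1 gene called, beside 1.34% of all genes, was Map3k5, which encodes the stress kinase ASK1 downstream of IRE1. Map3k5 fell by 0.40 ± 0.076 (SE) in HFD against RD (limma, adjusted p = 0.0420). Its values were 7.91, 8.15 and 8.08 in RD, 7.61, 7.68 and 7.66 in HFD, and 7.88, 7.87 and 7.87 in GFB. The call held only without RD replicate 1 among the 9 fits that left out an array (highest adjusted p = 0.134). Calls over all genes likewise rose without RD replicate 1 and fell without any other array.

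Heat shock genes of the cytosol and mitochondria, which belong to another stress response, went the other way. All 12 measured were lower in HFD than in RD, with a median of -0.29, and all 12 were lower in GFB than in RD, with a median of -0.21. Of these 0 were called in either comparison (limma), beside 1.34% and 0.442% of all genes. At an unadjusted p under 0.05 there were 4 and 3, all lower, beside 6.39% and 6.26% of all genes lower. In both groups against RD 1 fell, Hspe1, a mitochondrial co-chaperonin (-0.36, limma, adjusted p = 0.0486), beside 1.68% of all genes called. That call held only without RD replicate 1 when single arrays were left out (highest adjusted p = 0.183). No gene of these lists was called in GFB against HFD, beside 0.00451% of all genes. The plot of all lists against RD sets them side by side.

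**Figure D4:**
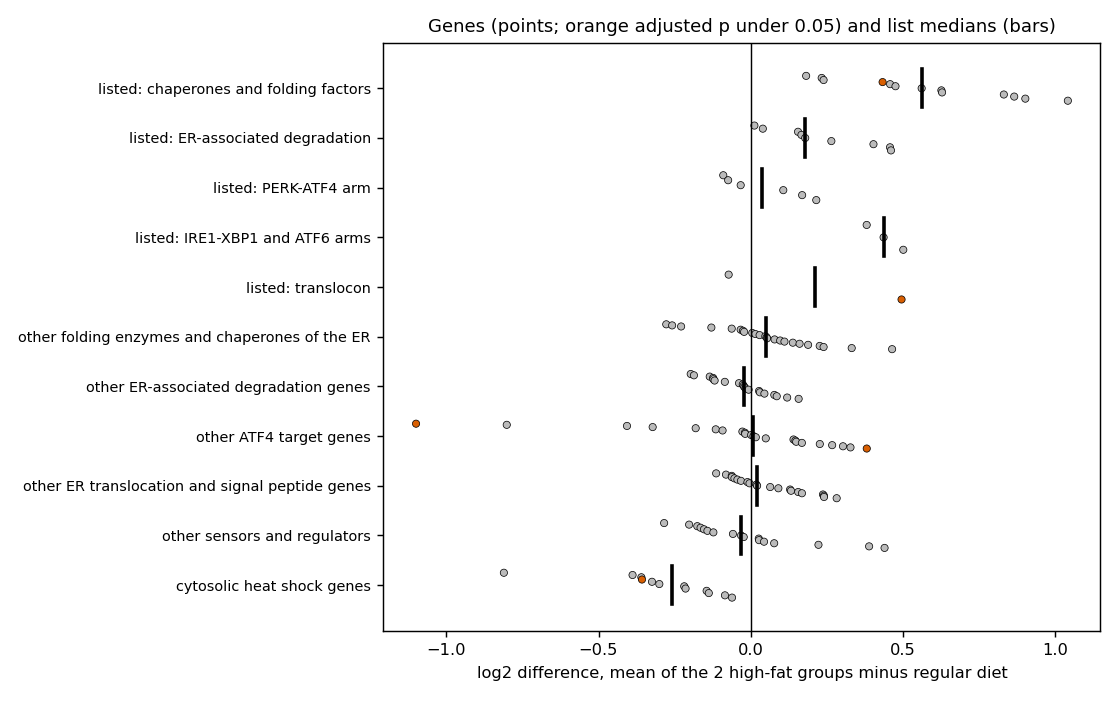
Log2 difference between the mean of the 2 high-fat groups and the regular diet, with 1 point per gene (orange, adjusted p under 0.05) and a bar at each list's median. The listed chaperones have a median of 0.56 and the further ER folding genes 0.050, the PERK-ATF4 genes 0.037 and the further ATF4 targets 0.0093, and all 12 heat shock genes lie under 0 (median -0.26).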

How the data were processed

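Liver RNA of 9 mouse samples, 3 in each of RD, HFD and GFB, was hybridised to 1-colour arrays. The deposited values are log2 expression per probe set, made by the authors by RMA (package oligo, versions unstated), per the submitters' processing notes. RMA quantile-normalizes the arrays, so a shift shared by most genes is removed, and dim probe sets stay near background. The probe sets' genome build: not given in the sources used here. Of 41345 probe sets, 23521 named 1 gene, 1814 several and 16010 none in the annotation table. Where a gene had several (1082 genes), the brightest was used.

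The tests used limma (version 3.58.1, R 4.3.3), as a mean per group fitted to all 9 arrays (6 residual and 3.28 prior degrees of freedom), two-sided, with Benjamini-Hochberg adjustment over 22180 genes and 95% intervals from the moderated fit. With 3 arrays against 3 an exact permutation test cannot go below p = 0.1 and was not used for calls. The labels do not say whether replicate numbers shared by the groups pair the arrays, and the main fit did not pair them. The correlation of deviations from group means ran from -0.05 to 0.17 for same-numbered arrays. For arrays of different number and group it ran from -0.13 to 0.13. The procedure was tested on simulated data. The 34 genes, their roles and the other lists were chosen with earlier results of these data known, so lists are described by counts and medians with no test. Every array is given for genes with an adjusted p under 0.10 in any comparison and for the 2 of each role with the smallest p in HFD against RD and in GFB against HFD. Values of other genes named (Sdf2l1, Derl3, Alb) were chosen after they were seen. Of the wider lists, genes that passed, or else the 1 with the smallest p, could be named. The number of arrays limits the precision. Alternatives were another moderation, brighter genes, the mean of probe sets, a second normalization, a shift of medians, array weights, a replicate block, an adjusted p under 0.10, the compared groups alone, and leaving out each array.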

Additional observations from a re-analysis of the deposited data

How the results depend on the processing

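In GFB against HFD 0 of the 33 genes were called under every alternative, beside 0 to 4 of all genes tested. In HFD against RD, where 0 were called, 2 were called with a variance trend and robust moderation and 2 with array weights (Sel1l and Syvn1 in each), 4 with only genes above the median of gene means and 4 at an adjusted p under 0.10 (Canx, Sel1l, Syvn1 and Sec61a1 in each), and 0 to 4 when single arrays were left out. Over all genes, the 297 calls of the main fit became 439 with the variance trend, 315 with array weights and 611 at an adjusted p under 0.10. With only genes above the median 597 of 11090 were called, and leaving out single arrays gave 58 to 452. In GFB against RD leaving out single arrays gave 0 to 2 calls, and over the 3 groups 0 to 2. Over all genes the GFB against RD fits gave 2 to 267 calls, beside 98 in the main fit. In both high-fat groups against RD the 2 calls became 4 with a variance trend and robust moderation, 6 with brighter genes, 6 at an adjusted p under 0.10, 0 after a second quantile normalization and 0 to 5 when single arrays were left out, with 4, 2 and 5 reached only without RD replicate 1. Over all genes the 372 calls became 551 with the variance trend, 707 of 11090 with brighter genes and 760 at an adjusted p under 0.10. A second quantile normalization gave 414, and leaving out single arrays 63 to 553. The highest counts over all genes, 452, 267 and 553, also came without RD replicate 1. With the replicate number as a block, both high-fat groups against RD gave 0 calls (limma, adjusted p = 0.0726 for Canx and 0.0730 for Sec61a1), beside 231 of all genes. The labels do not say whether the numbers pair the arrays. The translocon median became 0.47, 0.52 and 0.50 (HFD, GFB, both against RD) with brighter genes, since Sec61b was then not tested. Leaving out single arrays moved the degradation median from 0.15 to 0.28 in HFD against RD, from 0.074 to 0.21 in GFB against RD and from -0.19 to -0.099 in GFB against HFD, and the PERK-ATF4 median from -0.015 to 0.18 in HFD against RD. Differences turned sign in at least 1 such fit for 2 of 33 genes in HFD against RD, 6 in GFB against RD, 4 in both against RD and 23 in GFB against HFD. In GFB against RD they included Dnajb9 (-0.067 to 0.40) and Derl3 (-0.37 to 0.53). Among genes given by array, Chac1 ran from -0.051 to 0.25 in HFD against RD, and in GFB against HFD Chac1 from -0.095 to 0.21, Xbp1 from -0.057 to 0.26, Ern1 from -0.043 to 0.37, Sec61a1 from -0.011 to 0.14 and Sec61b from -0.16 to 0.13. Sec61b ran from -0.22 to 0.074 in GFB against RD and from -0.14 to 0.0078 in both, and was 0.023 in HFD against RD over its 2 probe sets. Ddit3 ran from -0.12 to 0.098 in both against RD. The cause of these changes was not tested. Rescaling the arrays moved the median of all genes by -0.016 at the most.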
